A study of Mus musculus with 2 samples.

Results

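The genes described are Dmbt1, Crisp1, Fjx1, Syt8, Prom1, Lgals4, Rbp2, Spink4, Sptssb and Gsta4, 10 of 32285 genes listed in the files. They were picked because earlier results from these same libraries showed them lower in the knockout tumour cells. The knockout and control levels in tumour cells are therefore given as a description, with no test. The study compared orthotopic pancreatic tumours in 2 groups of mice at day 21 after implantation of KPC mouse pancreatic cancer cells. The control group was littermates with the genotype Porcnfl/fl, labelled WT, and the knockout group was Csf1r-Cre;Porcnfl/fl mice, described as macrophage-specific, since the promoter of the myeloid receptor gene Csf1r drives Cre. Both groups carried the floxed allele of Porcn, an enzyme needed to secrete Wnt proteins. The KPC cells were implanted and are not cells of the host. Tumours from 5 mice of a genotype went into a single pool and 1 droplet-based 3′ single-cell RNA library, so cells cannot be assigned to mice and the spread between mice is unknown.

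Tumour cells were barcodes with at least 10 unique molecular identifiers (UMIs, one per counted RNA molecule) of Krt8, Krt18, Krt19 and Cdkn2a together and none of the leukocyte gene Ptprc. The labels call the samples tumour-infiltrating cells, yet the gate took most of the control library. It gave 8628 of 11516 kept control cells (74.9%) and 5237 of 10467 kept knockout cells (50%). These cells had a median of 14379 UMIs in the control library and of 15844 in the knockout library. Each keratin had a UMI in 98.5% or more of these cells in either library, and Cdkn2a in 93.8% and 92.1%. Keratin UMIs alone can pass the gate, so it may also hold epithelial cells of the host, which was not tested. Levels are in CPM, UMIs per 1000000 UMIs of all tumour cells of that library. Intervals in parentheses are exact 95% intervals that cover counting error only, and with 1 library per genotype no p-value is given. The libraries shared 46 cell barcodes (0.334% of control and 0.375% of knockout barcodes). Near the gate, cells with 10 to 14 marker UMIs numbered 588 in control and 282 in knockout. Their summed level of the 10 genes was 347 and 135 CPM. Cells just outside, with 5 to 9 marker UMIs, stood at 175 and 133 CPM.

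Several of these genes are best known from the surface epithelium of the gut. Enterocytes absorb fat and vitamins and carry the retinol binder Rbp2 and the galectin Lgals4 in their cytoplasm. Goblet cells secrete mucus together with small peptides such as Spink4, and Dmbt1 is a secreted scavenger-receptor glycoprotein of mucosal surfaces. Pancreatic cancer cells often carry transcripts of gastric and intestinal epithelium.

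Several defining intestinal genes were nearly absent from these tumour cells while other genes of gut epithelium were detected. An intestinal identity is therefore not given to these cells here. Cdx1 and Cdx2, the transcription factors that specify intestinal epithelium, had 11 and 8 UMIs in all control tumour cells and 1 and 2 in knockout. Muc2, the main goblet cell mucin, had 42 and 27 UMIs. Fabp1, Apoa4 and Atoh1 had 0 UMIs in both libraries, which allows up to 0.0202 CPM in control and 0.0316 CPM in knockout. Hnf4a, a factor of gut and liver epithelium, was measured at 50.1 CPM in control and 37.8 CPM in knockout. Of the same intestinal list, Lgals2 had 1297 CPM in control and 1392 CPM in knockout. Apoa1 had 14.3 and 10.4 CPM and Phgr1 11.1 and 4.29 CPM. The gastric genes Muc5ac, a surface mucin, and Vsig1, a junction protein of stomach, were abundant at 439 and 314 CPM in control and at 435 and 321 CPM in knockout.

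Upstream sequence was looked at for description only, since being lower together is how the members were picked. RefSeq promoter windows on GRCm38.p6, from 250 bases before to 50 after a start site, were found for 6 of the 10 genes, in 9 windows. Both strands were searched for CAATAAA (CDX), CTTTGAT (TCF/LEF), CAAAGTNCA (HNF4), TGTTTAC (FOXA) and TGACNNNGC (NRF2 antioxidant response), letters chosen with the expression results known. CAATAAA was found in 1 of the 9 member windows, that of Crisp1, and in 4.6% of all 32851 windows. CAAAGTNCA was found in 1 of the 9, that of Rbp2, and in 1.41% of all windows. TGACNNNGC was found in 1 of the 9, a window of Prom1, and in 12.4% of all windows. CTTTGAT and TGTTTAC were in none of the 9 windows and in 3.73% and 3.65% of all windows. CTTTGAT and CAAAGTNCA can overlap on opposite strands, but CTTTGAT had no match in the 9 windows. The 250 bases upstream of a RefSeq start site of Rbp2 and of Crisp1 are printed because they hold the gut-factor matches. The matches are in capitals, at -101 and -125 from that start site. The Rbp2 window lies inside the gene as GENCODE places it, 98486115 to 98509781, so the 2 annotations differ in its start. A match is a description of letters, not a bound site.
Rbp2 (chr9:98490287-98490536, plus strand): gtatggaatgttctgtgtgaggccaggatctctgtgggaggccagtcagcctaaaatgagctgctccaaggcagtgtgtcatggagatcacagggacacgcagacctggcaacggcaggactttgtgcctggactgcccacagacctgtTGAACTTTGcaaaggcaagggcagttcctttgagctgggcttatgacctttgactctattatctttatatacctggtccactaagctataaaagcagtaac
Crisp1 (chr17:40319208-40319457, minus strand): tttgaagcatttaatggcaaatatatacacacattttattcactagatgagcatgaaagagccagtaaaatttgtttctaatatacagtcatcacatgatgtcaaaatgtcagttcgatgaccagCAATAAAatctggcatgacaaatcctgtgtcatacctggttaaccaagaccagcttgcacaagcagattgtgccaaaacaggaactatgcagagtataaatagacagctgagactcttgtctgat

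Summed over the 10 genes, control tumour cells held 122419 UMIs, or 826 CPM (821 to 830), and knockout tumour cells 36342 UMIs, or 382 CPM (378 to 386). The ratio of knockout over control was 0.463 (0.458 to 0.469). All 10 genes were lower in the knockout library and 7 of them at least 2-fold lower. Among 17492 genes with at least 20 UMIs, 4.83% were at least 2-fold lower, and among 10420 genes with at least 1000 UMIs, as all members have, 1.19%. At least 2-fold higher were 2.77% and 0.451% of those genes and 0 of the members. Nothing is read from this contrast, because it chose the members. The log2 ratios of the members ran from -2.27 to -0.62 with a median of -1.47, against -0.08 over all 17492 genes.

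**Figure D1:**
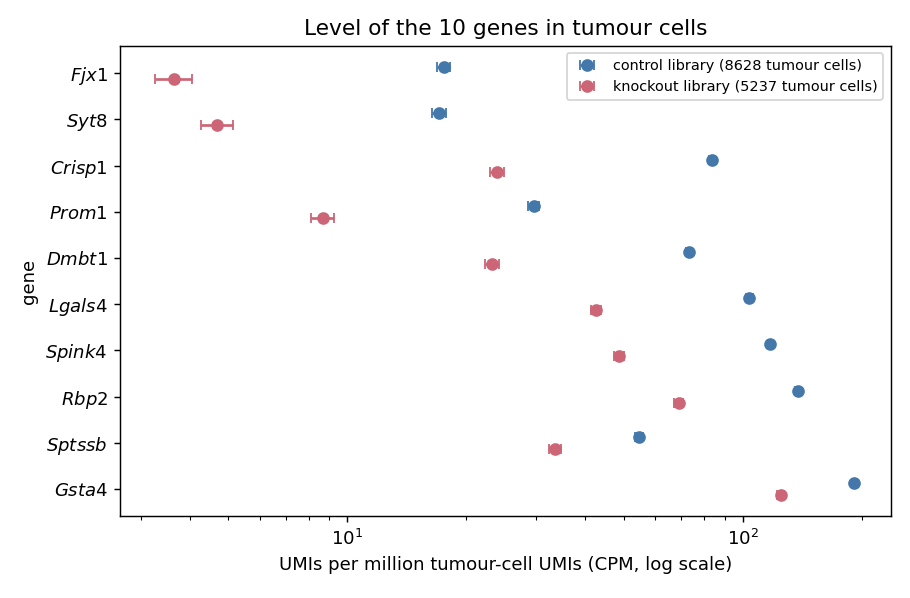
Level of each gene in tumour cells of the control library (blue) and the knockout library (red), in CPM on a log axis, ordered by log2 ratio; bars are exact 95% Poisson intervals of counting error. Each knockout point lies left of its control point, farthest for Fjx1 (17.6 against 3.64 CPM) and least for Gsta4 (191 against 125 CPM).

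Of the secreted proteins, Crisp1, a cysteine-rich secretory protein best known from the epididymis (ENSMUSG00000025431, chromosome 17, 40293758 to 40319207), was measured in control at 83.6 CPM (82.1 to 85.1), in knockout at 23.9 CPM (22.9 to 24.9). Its level was 3.50-fold lower in knockout, a log2 ratio of -1.81 (-1.87 to -1.74). Dmbt1 (ENSMUSG00000047517, chromosome 7, 131032053 to 131121630) went from 73.0 CPM (71.7 to 74.4) to 23.2 CPM (22.3 to 24.2). That is 3.14-fold lower, a log2 ratio of -1.65 (-1.72 to -1.59). The Dmbt1 gene overlaps Fgfr2 on the opposite strand. Spink4, a Kazal-type peptide of goblet cells (ENSMUSG00000028415, chromosome 4, 40920052 to 40931395), had 117 CPM (116 to 119) and 48.6 CPM (47.2 to 50), and was 2.42-fold lower.

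Among the binders and enzymes, 3 of 4 genes were less than 2-fold lower. Lgals4, which encodes galectin-4, a lectin of gut epithelium (ENSMUSG00000053964, chromosome 7, 28833854 to 28841708), had a control level of 104 CPM (102 to 106) and a knockout level of 42.6 CPM (41.3 to 43.9), 2.44-fold lower. Mouse strains can carry a near-identical copy of this gene, Lgals6, which is not listed in the files, so reads of such a copy could be counted as Lgals4. Rbp2, the cellular retinol-binding protein of enterocytes (ENSMUSG00000032454, chromosome 9, 98486115 to 98509781), had 138 CPM (136 to 140) and 68.9 CPM (67.2 to 70.6). Its ratio of 0.50 (0.486 to 0.514) fell just short of the 2-fold mark, so it is not among the 7. The Rbp2 gene overlaps Gm37113 on the same strand. Sptssb, a small subunit of serine palmitoyltransferase, the first enzyme of sphingolipid synthesis (ENSMUSG00000043461, chromosome 3, 69819542 to 69859940), had 54.7 CPM (53.5 to 55.9) and 33.6 CPM (32.4 to 34.7), 1.63-fold lower. Gsta4, a glutathione transferase that clears lipid aldehydes (ENSMUSG00000032348, chromosome 9, 78182774 to 78209349), was nearest to equal, at 191 CPM (189 to 193) and 125 CPM (122 to 127), 1.53-fold lower.

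The membrane and signalling genes were among those with the lowest ratios. Fjx1 is the mammalian four-jointed gene, whose fly homologue is a Golgi kinase acting on Fat and Dachsous cadherins (ENSMUSG00000075012, chromosome 2, 102449366 to 102452499). Control tumour cells held 17.6 CPM (16.9 to 18.2) of it, knockout ones 3.64 CPM (3.27 to 4.04). This was 4.82-fold lower, a log2 ratio of -2.27 (-2.44 to -2.11). Syt8, a synaptotagmin, a family of vesicle-fusion proteins (ENSMUSG00000031098, chromosome 7, 142434850 to 142440396), had 17.1 CPM (16.4 to 17.8) and 4.68 CPM (4.26 to 5.14), 3.65-fold lower. Prom1, which encodes the apical membrane-protrusion protein CD133 (ENSMUSG00000029086, chromosome 5, 43993620 to 44102032), had 29.6 CPM (28.7 to 30.5) and 8.67 CPM (8.09 to 9.28), 3.41-fold lower. Prom1 overlaps Gm42716 on the same strand and Gm16401 on the opposite strand.

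The lower levels were divided into a part from fewer positive cells and a part from fewer UMIs in each positive cell. To compare detection at 1 depth, each cell was thinned at random to 5000 UMIs, which kept 8290 control and 5088 knockout cells and left out 338 and 149 shallower ones. At that depth Fjx1 had a UMI in 6.13% (5.62 to 6.67) of control and 1.40% (1.09 to 1.76) of knockout tumour cells, while its positive cells held 1.64 and 1.61 UMIs on average. For Fjx1 the log2 ratio of -2.17 split into -2.13 from the share of cells and -0.03 from the level per positive cell. Crisp1 was seen in 9.41% (8.79 to 10.1) and 3.18% (2.72 to 3.70) of cells, with 4.56 and 3.93 UMIs per positive cell. Syt8 was seen in 5.96% and 1.91%, Prom1 in 8.17% and 3.03%, and Dmbt1 in 8.02% and 2.91% of cells. Lgals4 was seen in 12.7% (12.0 to 13.4) and 6.17% (5.53 to 6.87).

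In 3 genes the level per positive cell carried more of the difference than in the others. Rbp2 was seen in 22.3% (21.4 to 23.2) and 15.7% (14.7 to 16.8) of thinned cells, a share part of -0.50, and its positive cells held 2.61 and 1.99 UMIs, a level part of -0.40. Spink4 went from 22.0% to 12.1% of cells and from 2.55 to 2.02 UMIs per positive cell, with parts of -0.86 and -0.34. Dmbt1 positive cells held 3.97 and 2.97 UMIs, with parts of -1.46 and -0.42. Without thinning they held 9.44 and 8.49 UMIs on average, with a median of 2 in both libraries. The Dmbt1 means rest on few cells, as given below. Sptssb and Gsta4 were the reverse case, with level parts of 0.04 and 0.01. Sptssb was seen in 12.5% and 7.21% of cells at 2.07 and 2.13 UMIs per positive cell, and Gsta4 in 34.0% (33.0 to 35.0) and 22.9% (21.7 to 24.1) at 2.71 and 2.72. The share part was the larger one in all 10 genes, but in 3 of them, Fjx1, Syt8 and Prom1, it had to be. A positive cell has at least 1 UMI, so their level part could not go below -0.71, -0.24 and -0.76. In the other 7 genes either part could have been the larger. For the sum of the 10 genes the parts were -0.54 and -0.53, since a cell with several genes counts once in the share. A share and a mean over positive cells are not independent at low counts, since a lower level also takes cells below 1 UMI.

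**Figure D2:**
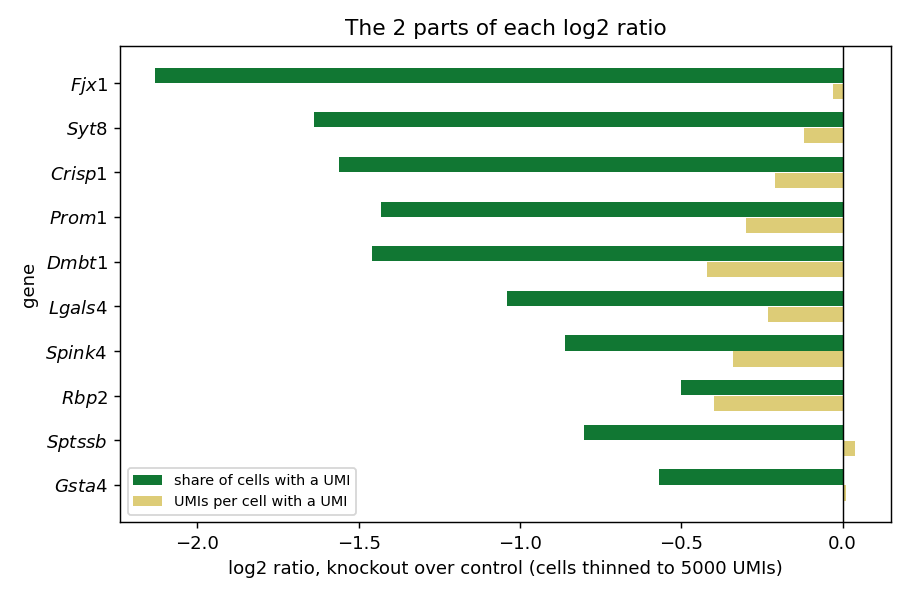
The log2 ratio of knockout over control in thinned tumour cells, divided into the part from the share of cells with a UMI (green) and the part from UMIs per positive cell (yellow), for each gene. Green bars run from -2.13 for Fjx1 to -0.50 for Rbp2, and yellow bars from -0.42 for Dmbt1 to 0.04 for Sptssb.

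Without thinning the shares were higher and kept the same order between libraries. Gsta4 had a UMI in 48.4% (47.4 to 49.5) of control and 36.9% (35.6 to 38.2) of knockout tumour cells, Rbp2 in 39.0% and 32.1%, Spink4 in 35.8% and 22.1%, and Lgals4 in 22.7% and 13.2%. Sptssb was seen in 19.2% and 12.0%, Syt8 in 15.5% and 5.33%, Prom1 in 14.5% and 6.22%, Dmbt1 in 13.3% and 4.96%, Crisp1 in 13.1% and 4.75%, and Fjx1 in 12.2% and 3.06%. Free RNA gives UMIs to cells that do not express a gene, so shares in cells with the markers of another type are given beside these; whether they come from free RNA or from the cells was not tested. In 611 control fibroblast-marker cells, with a median of 10028 UMIs, the 10 genes were seen in 0.655% to 9.17% of cells, and in 731 knockout ones, with a median of 8924 UMIs, in 0 to 9.30%. The highest share there was that of Gsta4 in both libraries. T cells, with medians of 3556 and 3666 UMIs, had shares of at most 3.88% in control and 2.18% in knockout, both for Lgals4.

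The transcripts were concentrated in few cells. In control, 57 cells (0.661% of tumour cells) held 50% of all Dmbt1 UMIs, and in knockout 11 cells (0.210%) did, 1 cell alone holding 18.0%. For Lgals4 those numbers were 75 cells (0.869%) and 27 cells (0.516%), for Crisp1 142 and 31, and for Gsta4 503 (5.83%) and 191 (3.65%). The highest count of Lgals4 in 1 cell was 635 in control and 406 in knockout, while the median positive cell had 2 and 1 UMIs. Crisp1 was different in shape, with a median of 5 UMIs in control and 4 in knockout positive cells. The share of thinned tumour cells with 5 or more Crisp1 UMIs was 3.22% in control and 0.865% in knockout, and for Prom1 0.362% and 0.0197%, the latter being 1 cell. For Gsta4 it was 5.36% and 3.62%.

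Counted together, thinned control cells carried more of the 10 genes at once. Cells with none were 37.1% in control and 56.8% in knockout. Cells with 3 or more were 20.2% (19.3 to 21.1) in control and 8.12% (7.38 to 8.90) in knockout, and cells with 5 or more were 5.73% (5.24 to 6.25) and 1.63% (1.30 to 2.02). Without thinning, 37.7% and 20.9% of cells had 3 or more, and 23 control cells and 1 knockout cell had all 10.

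**Figure D3:**
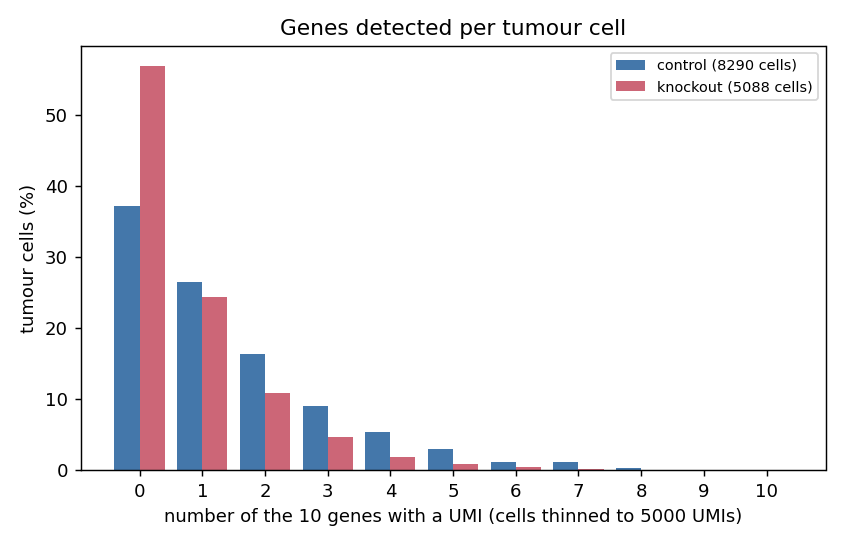
Percentage of tumour cells, thinned to 5000 UMIs each, by how many of the 10 genes had a UMI, in control (blue) and knockout (red). The knockout bar is higher at 0 genes (56.8% against 37.1%) and lower from 1 gene upward as far as 9 genes.

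Co-detection differed between the pairs. Over thinned cells, each of the 45 pairs was seen together more often than the product of the shares in both libraries. The median was 1.89 times in control and 2.71 in knockout. This ratio has more room to rise where genes are seen in fewer cells, as the members were in knockout. The median Pearson r of log1p UMIs over the pairs was 0.13 in both libraries. These correlations are descriptions over 8290 and 5088 cells of 1 library each, with sparse counts at equal depth. Lgals4 and Rbp2 made the pair with the highest Pearson r of log1p UMIs, 0.47 in control and 0.38 in knockout. In control 51.7% of Lgals4-positive cells were Rbp2-positive, and 29.5% of Rbp2-positive cells were Lgals4-positive, against 41.7% and 16.4% in knockout. Dmbt1 with Lgals4 (0.39 and 0.34), Lgals4 with Spink4 (0.39 and 0.31) and Spink4 with Gsta4 (0.38 and 0.33) followed.

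Crisp1, Fjx1 and Syt8 had the lowest correlations, though r is also low where a gene has few UMIs. The median r with the other 9 genes was 0.09 in control and 0.03 in knockout for Crisp1, 0.09 and 0.05 for Fjx1, and 0.10 in both for Syt8. For Lgals4 it was 0.32 and 0.27, for Spink4 0.30 and 0.28, and for Gsta4 0.24 and 0.22. Crisp1 and Fjx1 correlated at 0.13 in both libraries, while Fjx1 and Rbp2 stood at 0.02 in both. By co-detection the order was different. The median ratio of observed to product was 2.04 in control and 2.74 in knockout for Fjx1 and 1.75 and 3.29 for Syt8, above the 1.62 and 1.90 of Rbp2 and the 1.62 and 2.22 of Gsta4. Crisp1 had 1.52 and 2.59, and Dmbt1 2.40 and 3.93. Since this ratio has more room to rise for rarer genes, its order between genes and libraries also reflects how often each was seen.

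**Figure D4:**
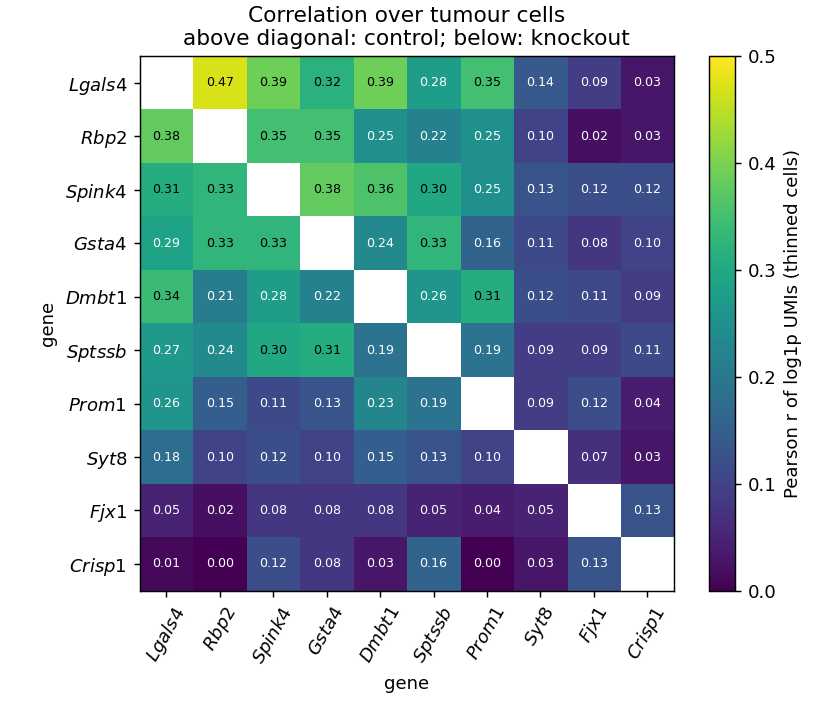
Pearson correlation of log1p UMIs between the 10 genes over thinned tumour cells, control above the diagonal and knockout below. The block from Lgals4 to Prom1 ranges up to 0.47, while the columns of Syt8, Fjx1 and Crisp1 do not exceed 0.18.

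Other genes were ranked by their correlation with the summed level of the 10 over thinned cells, taking the smaller value of the 2 libraries among 10443 genes. The sum did not follow all members equally. Its r with Gsta4 was 0.71 in control and 0.77 in knockout, and with Spink4 0.62 and 0.58. With Fjx1 it was 0.26 and 0.18, and with Syt8 0.22 and 0.20. The highest was Ugt2b34, a glucuronosyltransferase that conjugates drugs and steroids, with r of 0.38 in control and 0.37 in knockout. Its own level was 62.3 CPM in control and 25.8 CPM in knockout, a log2 ratio of -1.27. Gclc, the catalytic subunit of glutamate-cysteine ligase, which makes the precursor of glutathione, had r of 0.29 and 0.30 and stood at 334 and 214 CPM. Paqr5, a membrane progestin receptor, had 33.0 and 18.1 CPM, and Mgst3, a microsomal glutathione transferase, 399 and 304 CPM. Smim6 had 117 and 84.7 CPM. The other 3 of the first 8 had nearly equal levels in the libraries. Fxyd3, a regulator of ion pumps, stood at 270 and 271 CPM, Muc5ac at 439 and 435 CPM, and the tetraspanin Tspan8 at 1091 and 1041 CPM. Muc5ac correlated with the sum of the 10 genes at 0.28 in control and 0.43 in knockout.

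The knockout level was lower within every state of the tumour cells that was looked at, and nearest to equal in the cells with most gastric mucous transcripts. Tumour cells of both libraries were divided into quartiles by a gastric mucous list of 14 genes without members, of which Muc5ac and Vsig1 made up 77.2% of UMIs in control and 77.6% in knockout. The lowest quartile held 23.4% of control and 27.7% of knockout cells and the highest 25.3% and 24.6%. In the lowest, the 10 genes summed in control to 323 CPM (317 to 329), in knockout to 86.4 CPM (82.8 to 90.2), a ratio of 0.268 (0.256 to 0.281). The second quartile stood at 746 and 203 CPM, a ratio of 0.273, and the third at 731 and 288 CPM, a ratio of 0.395. In the highest the levels were 1421 CPM (1410 to 1433) and 938 CPM (926 to 950), a ratio of 0.660 (0.650 to 0.670). Whether the ratios differ between quartiles beyond the spread between mice was not tested.

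Single genes followed this to different degrees. Gsta4 went from a ratio of 0.386 in the lowest quartile, at 60.4 and 23.3 CPM, to 0.845 in the highest, at 374 and 316 CPM. Sptssb went from 0.317 to 0.863, where it stood at 94.7 and 81.7 CPM. Lgals4 went from 0.141, at 35.7 and 5.04 CPM, to 0.576, at 220 and 127 CPM. Dmbt1 was at 0.0870 in the second quartile, 80.4 and 6.99 CPM, and at 0.592 in the highest. Fjx1 kept low ratios throughout, from 0.143 to 0.295, and in the highest quartile had 7.66 and 2.26 CPM, below its level in the lowest, 18.6 and 2.66 CPM. Rbp2 stood at 0.496, 0.311, 0.498 and 0.585 from the lowest to the highest quartile.

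**Figure D5:**
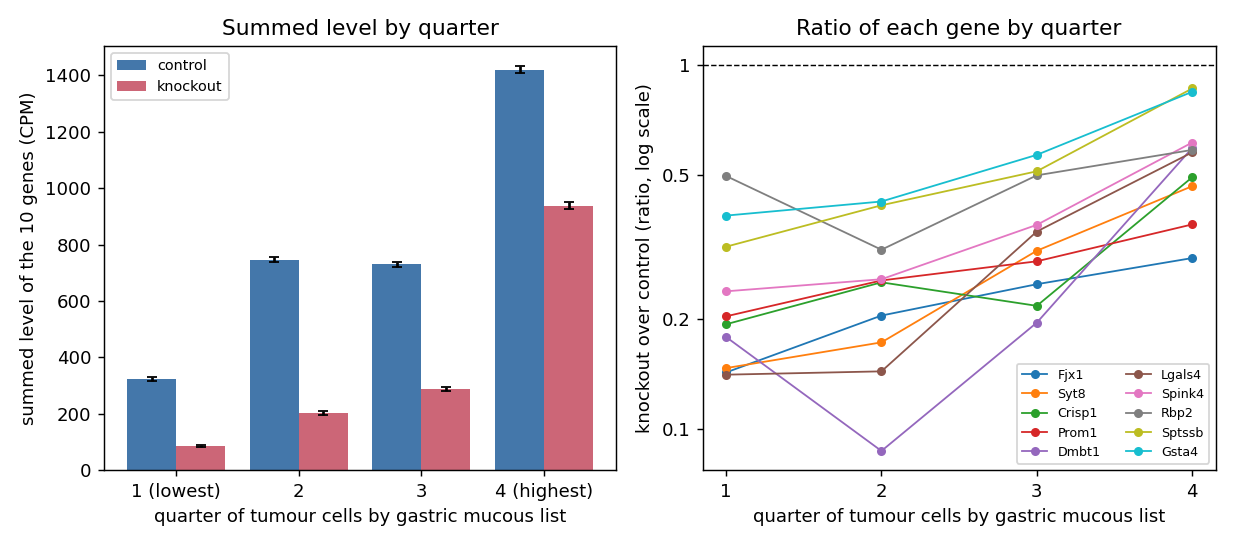
Left, summed CPM of the 10 genes in quartiles of tumour cells by gastric mucous list level, control (blue) and knockout (red), with exact 95% counting intervals. Right, ratio of knockout over control for each gene and quartile on a log axis, all below the dashed line at 1; the summed ratio is 0.268 in the lowest and 0.660 in the highest quartile.

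Quartiles by the intestinal list gave ratios of 0.325, 0.285, 0.50 and 0.583 from lowest to highest. That list of 34 genes was mainly a measure of Lgals2, another galectin, which held 91.6% of its UMIs in control and 90.8% in knockout. Cells with 5 or more UMIs of 12 cell cycle genes had a summed ratio of 0.533 (0.517 to 0.551), and the other tumour cells 0.453 (0.448 to 0.459). By depth, the ratio was 0.555 under 10000 UMIs, 0.484 from 10000 to 20000 and 0.432 above. All 10 genes were lower in knockout in each of these groups of cells.

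Transcripts of other cell types differed between the 2 sets of tumour cells. The acinar list of 13 digestive enzyme genes summed to 37.0 CPM in control and 587 CPM in knockout, and 20.3% and 53.5% of tumour cells had a UMI of it. The fibroblast list of 7 genes summed to 689 and 136 CPM, the endocrine list of 6 to 5.80 and 210 CPM, and the stress list of 12 to 1690 and 2033 CPM. T cell markers stood at 2.02 and 5.66 CPM, macrophage markers at 10.4 and 10.9 CPM and neutrophil markers at 11.2 and 3.26 CPM. In cells without an acinar UMI the 10 genes summed to 657 and 280 CPM, a ratio of 0.426 (0.418 to 0.435). In cells with one they summed to 1313 and 455 CPM, a ratio of 0.346 (0.341 to 0.352). Both ratios were below the 0.463 of all tumour cells, as the second group held 20.3% of control and 53.5% of knockout cells. The enzymes seen differed as well, with Ctrb1 in 1.85% of control and 19.2% of knockout tumour cells and Cela1 in 15.6% and 19.1%. In cells without a fibroblast UMI the ratio was 0.482 (0.475 to 0.489), and with one 0.429 (0.420 to 0.437).

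Relatives of the members are given for description only. Their lists were chosen with earlier results of these data known, and some genes were named after their values were seen. Of the 7 other galectins in the files, 1 was at least 2-fold lower, Lgals7 at 4.89 and 2.41 CPM, and the median log2 ratio was -0.02. Among all 17492 genes with at least 20 UMIs, 4.83% were at least 2-fold lower and 2.77% at least 2-fold higher. Lgals2 stood at 1297 CPM in control and 1392 in knockout, Lgals3 at 1090 and 1074 and Lgals1 at 1932 and 1558. Of the 18 other glutathione transferases with at least 20 UMIs, 0 were 2-fold lower or higher, with a median of -0.20. Gsto1 had 271 and 234 CPM, and Gsta1 and Gsta3, of the same alpha class as Gsta4, had 12.6 and 9.88 CPM and 3.64 and 2.54 CPM. In the serine palmitoyltransferase list the median was -0.11 over 6 genes, and the other small subunit, Sptssa, stood at 118 and 104 CPM. The catalytic subunits Sptlc1 and Sptlc2 had 28.1 and 26.3 CPM and 59.3 and 54.4 CPM.

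Fat1, a giant cadherin, was the one abundant member of the Fat and Dachsous list, at 88.6 CPM in control and 62.6 in knockout, a log2 ratio of -0.50. Among relatives of the remaining genes, Prom2 had 2 and 1 UMIs and Crisp3 8 and 2. Spink1, a trypsin inhibitor that acinar cells secrete, went the other way, from 0.587 to 4.39 CPM. The retinoid list was lower as a whole. All 20 of its genes with at least 20 UMIs were lower in knockout, 7 of them at least 2-fold. Over all 17492 genes, 4.83% were at least 2-fold lower. The median log2 ratio was -0.48, beside -0.08 over all genes. Rbp4, the plasma retinol carrier, had 342 and 188 CPM. Crabp2, a retinoic acid binder, had 12.7 and 0.2 CPM in 2.52% and 0.191% of cells. Cyp26b1, which degrades retinoic acid, had 2.51 and 0.326 CPM, and the retinol receptor Stra6 5.18 and 1.03 CPM. The r of Rbp4, Crabp2, Cyp26b1 and Stra6 with the summed members lay between -0.07 and 0.11. Other abundant genes of the list were nearer to equal, Aldh1a1 at 68.5 and 54.2 CPM and Rara at 49.7 and 47.5 CPM. The fibroblast list was lower in the same cells, as given above, and its part in the retinoid list was not tested.

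Genes of gut and Wnt lists behaved unevenly. Of 27 intestinal genes with at least 20 UMIs, 6 were at least 2-fold lower and 3 at least 2-fold higher, with a median of -0.12. Among all 17492 such genes 4.83% were at least 2-fold lower and 2.77% at least 2-fold higher, with a median of -0.08. Tff3, a goblet cell trefoil peptide, had 3.25 and 0.0947 CPM, in 0.313% and 0.0573% of cells, and Muc13, a membrane mucin, 0.614 and 0.0947 CPM. Zg16 and Reg3b were higher in knockout, at 0.519 against 16.0 CPM and 5.48 against 40.5 CPM. Zg16 was seen in 0.51% of control and 5.04% of knockout tumour cells, and Reg3b in 0.406% and 0.936%. Zg16 is also a zymogen granule gene, and the acinar list differed the same way in these cells, as given above; its part was not tested. The gastric list of 14 genes had 0 genes 2-fold lower and 1 2-fold higher, Gkn3, with a median of 0.04. Of 15 Wnt target genes, 4 were 2-fold lower and 0 higher, with a median of -0.29. Rnf43, a receptor-clearing ubiquitin ligase induced by Wnt, had 8.16 and 2.94 CPM. Notum, a secreted Wnt deacylase, had 0.897 and 0.221 CPM, from 133 and 21 UMIs. Axin2 had 2.87 and 1.87 CPM, Ccnd1 701 and 669 CPM and Sox9 142 and 133 CPM. The r of Rnf43 with the summed members was 0.05 in control and 0.07 in knockout, and that of Notum -0.04 and -0.01. The fibroblast list was lower in these cells, as given above, and its part in the Wnt list was not tested.

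In cells with fibroblast, macrophage or T cell markers the sum of the 10 genes was below that of tumour cells. Fibroblast-marker cells held a sum of 29.1 CPM (25.4 to 33.3) in the control library, 21.4 CPM (18.1 to 25.2) in the knockout library. The sums were 27.2 and 10.3 CPM in macrophage-marker cells and 33.1 and 14.7 CPM in T cell-marker cells. Cells in no marker class had 189 CPM (177 to 202) and 62.1 CPM (55.9 to 68.8). Cells with tumour markers that also held Ptprc, 149 in control and 243 in knockout, had 1272 CPM (1235 to 1309) and 448 CPM (432 to 465). In control 1 cell held 1258 of their 4542 UMIs, and in knockout 1 cell held 633 of 2757. In that group Lgals4 stood at 275 and 53.0 CPM, and 1 control cell held 470 of its 983 UMIs.

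A few members had values in other classes that differ from this pattern. Dmbt1 had 272 UMIs in 42 knockout cells with acinar markers, 789 CPM (698 to 889), against 23.2 CPM in knockout tumour cells, and 77 of those UMIs were in 1 cell. A UMI was seen in 26.2% of those acinar-marker cells. Fjx1 had 19 UMIs in 44 control endothelial-marker cells, 61.7 CPM (37.2 to 96.4), above its 17.6 CPM in control tumour cells, with 9.09% of the cells positive and 8 of the UMIs in 1 cell. In 20 knockout endothelial-marker cells it had 2 UMIs. Prom1 had 34 UMIs in 257 control neutrophil-marker cells, 45.4 CPM (31.5 to 63.5), with no more than 4 in 1 cell, and 3 UMIs in 155 knockout ones. Gsta4 in fibroblast-marker cells was at 8.50 CPM (6.53 to 10.9) in the control library, at 12.4 CPM (9.91 to 15.3) in the knockout library.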

How the data were processed

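The deposited matrices hold counts of UMIs per gene and barcode, not normalised, and per the file headers the software was Cell Ranger 8.0.0. The submitters' processing notes list Cell Ranger 3.1.3 and mm10, and the versions were not reconciled. The control matrix held 173934025 UMIs in 13766 barcodes and the knockout matrix 137527647 UMIs in 12251. Kept barcodes had 500 genes or more and no more than 15% of UMIs from mitochondrial genes. Doublets called by Scrublet (scanpy 1.11.5, 148 and 341 barcodes, 1.27% and 3.16%) were removed. Gene positions come from GENCODE M21 on GRCm38, matched by gene identifier for all 10 genes.

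Log2 ratios used a pseudocount of 1 UMI. Poisson, Clopper-Pearson and conditional binomial intervals were exact, at 95%, and a count of 0 was bounded by 3 counts. Thinning used 1 random draw per cell. Cells outside the tumour gate were put in a class when its markers had at least 5 UMIs and at least 3 times those of the next class. Cells with 10 or more tumour-marker UMIs and Ptprc were set aside first. The ratio and thinning steps were tested on simulated data. Other tools were python 3.11.15, numpy 2.4.6, scipy 1.17.1, pandas 2.3.3, anndata 0.12.19 and matplotlib 3.10.9.

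The members and lists were chosen with earlier results of these data known. All members were named. At most 6 genes of each list were named, those with the most UMIs or the largest log2 ratio among genes with at least 20 UMIs, besides the 8 genes most correlated with the members among those seen in at least 5% of tumour cells. Defining intestinal factors, close relatives of members and some further list genes were named outside this rule, after their values were seen. Alternatives covered the gate, cell filter, doublets, depth, scaling and pseudocount.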

Additional observations from a re-analysis of the deposited data

Results flagged for a closer look

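A pair of members was higher in the knockout library in another cell class while lower in tumour cells. Dmbt1 in acinar-marker cells had 178 CPM in control and 789 CPM in knockout, a ratio of 4.44 (1.88 to 13.8), from 5 UMIs, all in 1 of 5 control cells, and 272 UMIs in 42 knockout cells. In tumour cells its ratio was 0.318 (0.304 to 0.333). Gsta4 in fibroblast-marker cells had a ratio of 1.46 (1.04 to 2.05), against 0.652 (0.638 to 0.666) in tumour cells. The difference between the classes was not tested, and each group is 1 library.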

How the results depend on the processing

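With 1 library per genotype no result has a replicate check, and counting intervals do not include the spread between mice. No paired analysis was possible because each genotype has 1 library. In 10 alternatives for each of the 10 genes, 0 of 100 log2 ratios changed sign, and they ran from -2.37 to -0.54. The genes were picked for being lower, so a kept sign is no support. Of the 100, 25 fell outside the counting interval of their gene. Dmbt1 did so in 5 of its 10 alternatives, which ran from -1.92 to -1.57. The summed ratio of 0.463 became 0.458 with a tumour gate of 20 UMIs, 0.482 as a mean over cells of per-cell CPM, 0.475 after thinning to 5000 UMIs and 0.490 with a size factor from the median gene. It moved by no more than its counting interval in the other 6 alternatives. The number of genes at least 2-fold lower was 7 or 8, Rbp2 being the gene at the mark. The ratio of the shares of cells with 3 or more genes, 0.402, was 0.358 after thinning to 2000 UMIs, 0.477 after thinning to 10000, 0.555 without thinning and 0.518 for 2 or more genes. It ran from 0.407 to 0.428 under the other 6 settings. The cause of these shifts was not tested.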

Other observations

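Genes were also ranked by the most negative correlation with the summed 10 members in tumour cells, a ranking chosen after the data had been seen. Tnnt2, a troponin of heart muscle, had r of -0.28 in control and -0.33 in knockout and stood at 213 and 307 CPM. Hmga2, a chromatin protein of embryonic and mesenchymal cells, had r of -0.24 and -0.27 and stood at 427 and 478 CPM. Inhba, a subunit of activin A, had r of -0.20 and -0.21 and stood at 111 and 157 CPM, and Igfbp3, a binder of insulin-like growth factors, r of -0.21 in both and 92.2 and 136 CPM. Csmd1, Cald1, Apbb2, Klra4 and Plod2 were also among the 10 lowest genes. Of those 10, Pmepa1 alone had a log2 ratio below 0, at -0.10.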
